A study of Mus musculus with 12 samples.

Results

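The genes described here encode proteins that carry fat inside and between cells: 2 fatty acid binding proteins (Fabp3, Fabp5), the fatty acid receptor Cd36, 4 apolipoproteins (Apoe, Apoa1, Apob, Apom) and 2 perilipins (Plin2, Plin3). They were chosen by name, as the rows with these 9 symbols among the 43472 genes of the deposited table, and all 9 were found. Of these, 6 passed the filter on low values, a mean over the 12 libraries of at least 3.582 reads per 1000000 (CPM), as did 10751 of all genes. Apob, Apom and Cd36 did not, and their levels are given with the reads behind them.

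The libraries were RNA-seq profiles of embryos of CD1, an outbred mouse stock. Zygotes had received either a negative control siRNA or an siRNA against Tdgf1, which encodes Cripto, a co-receptor of Nodal. In both arms GFP mRNA was injected together with the siRNA to mark injected zygotes, so the control embryos had been injected as well. Embryos were collected as morulae, early blastocysts and late blastocysts, and each of the 6 groups of stage and siRNA had 2 libraries. The sources used here do not give the number of embryos in a library.

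Fatty acid binding proteins hold long-chain fatty acids in solution in the cytoplasm and move them between membranes, mitochondria and the nucleus. Perilipins coat lipid droplets, the cell's stores of triglyceride and cholesteryl ester, and govern the access of lipases to them. Apolipoproteins form and stabilise lipoprotein particles, which carry lipid between cells and are taken up by receptors of the LDL receptor family. In the blastocyst the outer epithelium, the trophectoderm, takes up nutrients, and the primitive endoderm and its later derivative, the visceral endoderm, secrete apolipoproteins and other serum proteins.

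The 4 members whose level rose most between morula and late blastocyst are shown here by the DNA just upstream of their start, to set the genes apart by sequence before their values. Sequences are from RefSeq's promoter windows on GRCm38.p6, which matched 8 of the 9 members. Each is read 5′ to 3′ on the gene's strand and ends upstream of both the RefSeq and the GENCODE start, and capitals mark CG dinucleotides. The Fabp3 stretch is chr4:130308488-130308594 on the plus strand, the Plin2 stretch chr4:86670061-86670309 on the minus strand, the Apoe stretch chr7:19699189-19699438 on the minus strand and the Apoa1 stretch chr9:46228380-46228579 on the plus strand.
Fabp3: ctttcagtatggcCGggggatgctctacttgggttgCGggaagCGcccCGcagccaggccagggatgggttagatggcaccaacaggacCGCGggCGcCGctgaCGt
Plin2: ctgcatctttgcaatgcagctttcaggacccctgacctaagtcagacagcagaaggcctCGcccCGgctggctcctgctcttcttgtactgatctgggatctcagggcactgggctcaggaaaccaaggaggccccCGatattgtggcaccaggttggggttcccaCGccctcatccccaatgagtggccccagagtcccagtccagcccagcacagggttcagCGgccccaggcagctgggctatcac
Apoe: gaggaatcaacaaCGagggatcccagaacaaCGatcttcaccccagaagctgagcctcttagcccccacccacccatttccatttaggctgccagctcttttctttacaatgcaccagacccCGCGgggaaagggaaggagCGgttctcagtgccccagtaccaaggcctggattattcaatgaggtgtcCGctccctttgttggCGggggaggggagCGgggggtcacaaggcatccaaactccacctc
Apoa1: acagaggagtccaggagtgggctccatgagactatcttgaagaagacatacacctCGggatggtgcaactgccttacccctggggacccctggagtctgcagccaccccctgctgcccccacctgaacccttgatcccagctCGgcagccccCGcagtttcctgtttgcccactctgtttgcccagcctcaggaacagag

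In the full windows of 250 bases before the RefSeq start, Fabp3 held 17 CG dinucleotides, a count reached by 23.7% of 32536 such windows. The last 143 bases of its window lie past the GENCODE start, and the printed stretch upstream of both starts held 9. Apoe held 8, Plin2 held 6 and Apoa1 held 4, against a median of 6 over all windows. The windows were searched on both strands for a nuclear receptor half-site (AGGTCA, in 14.0% of all windows), a GC box (GGGCGG, 33.0%), a TATA box (TATAAA, 12.3%), a GATA site (AGATAA, in 3244 windows) and a CCAAT box (CCAAT, 33.8%). Plin2 had 1 AGGTCA match, 218 bases before the start, and 1 CCAAT match, 73 bases before it. The first-listed windows of Fabp3, Apoe and Apoa1 had none of these letters. A second window listed for Apoe, at another start, had 2 TATAAA matches, 100 and 96 bases before that start. A match describes the sequence only.

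Tdgf1 itself was the check of the labels. At morula it was at 29.4 and 23.4 CPM in the control libraries and at 15.5 and 10.98 CPM in the Tdgf1 siRNA libraries. At early blastocyst it was at 21.7 and 13.1 CPM in controls and at 9.27 and 15.2 CPM after siRNA. At late blastocyst it was at 97.3 and 84.6 CPM against 49.5 and 70.8 CPM. Within same-numbered libraries the siRNA value was 42.6% to 83.6% of the control value in 5 of 6 pairs and 116.5% in early blastocyst pair 2, so the early blastocyst library labelled Tdgf1 siRNA replicate 2 did not show the reduction its label names. Libraries held 10524640 to 13770264 reads. On the first principal component of all tested genes (70.8% of the variance), which ordered the stages, the early blastocyst libraries numbered 2 in both arms lay nearer to the morulae (-20.2 and -15.9) than those numbered 1 (6.01 and 1.20). The members' stage calls at early blastocyst were therefore also checked without both libraries numbered 2. Values without these libraries are given for some members only.

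The 6 members past the filter were all higher in late blastocysts than in morulae, in both arms. Tests below are limma's moderated test on log2(deposited value + 1), fitted over all 10751 genes with Benjamini-Hochberg adjustment and a threshold of 0.05. In control embryos 6 of 6 members rose between morula and late blastocyst, where 28.9% of all genes tested rose, 19.3% fell and 48.2% changed. In Tdgf1 siRNA embryos 6 of 6 rose as well, where 27.2% of all genes rose and 43.8% changed. The members' median log2 change in controls was 2.86, and the median over all genes was 0.13. The 6 members are a small set chosen by name with earlier results of these data known. Their count and median are set beside the values of all genes as a description, not as a test.

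**Figure D1:**
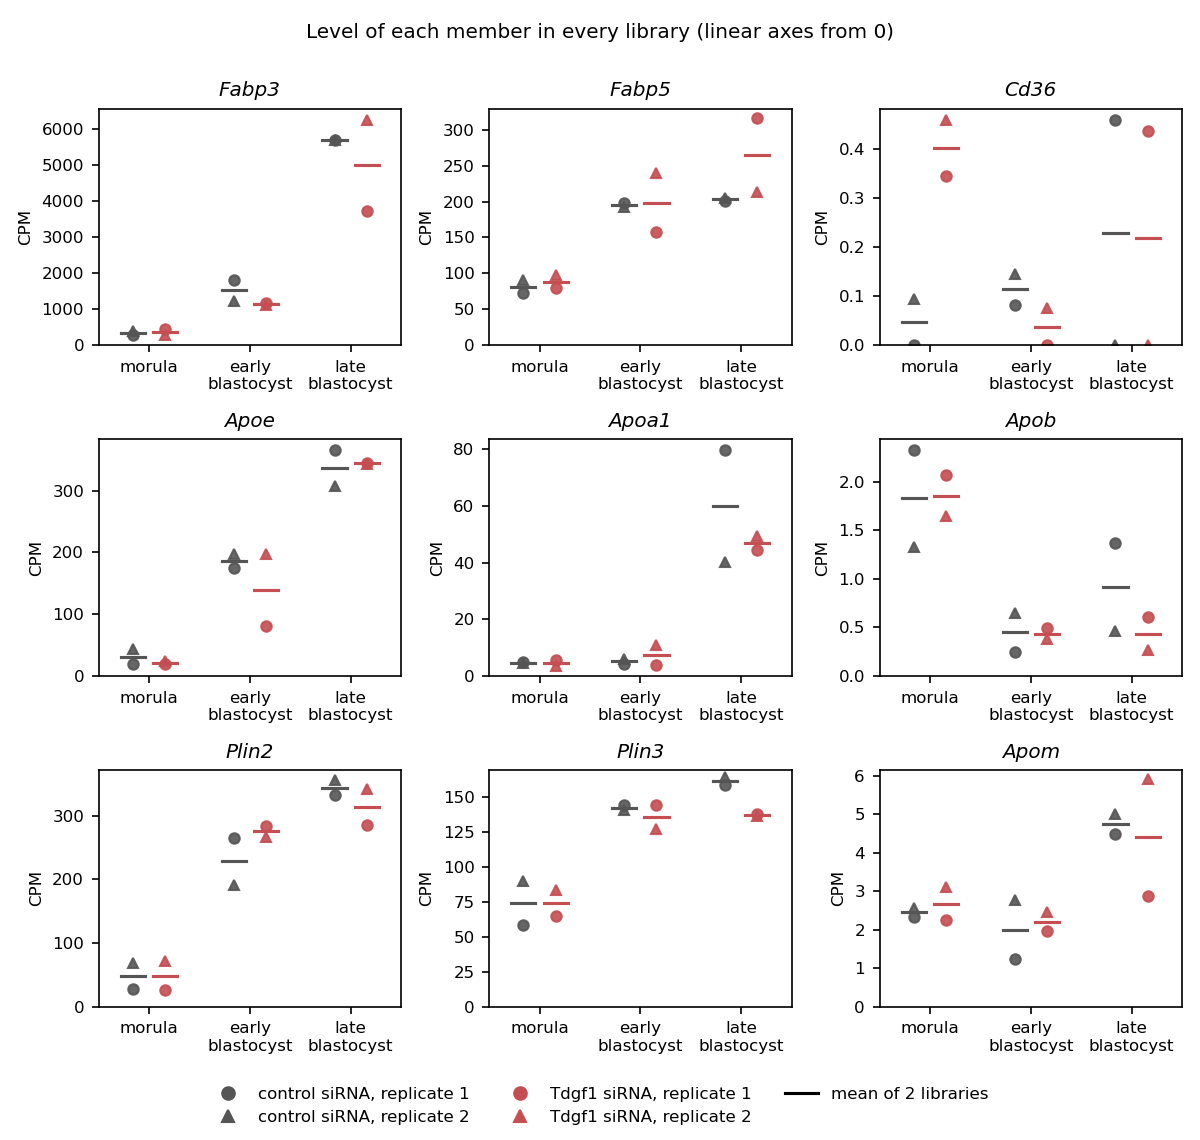
Level of each of the 9 genes in every library, in CPM on linear axes from 0, by stage; grey marks control and red Tdgf1 siRNA embryos, circles replicate 1, triangles replicate 2, and bars the mean of 2 libraries. Fabp3 climbs from 278 to 458 CPM at morula to 3733 to 6257 CPM at late blastocyst, Apoa1 stays at or below 10.9 CPM until late blastocyst, and Cd36 never exceeds 0.458 CPM.

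The steps fell into different stages for different members. Between morula and early blastocyst 5 of 6 members rose in control embryos (9.52% of all genes rose and 15.8% changed) and in Tdgf1 siRNA embryos (8.8% rose and 15.4% changed): Fabp3, Fabp5, Apoe, Plin2 and Plin3. Between early and late blastocyst Fabp3 and Apoa1 rose in controls (2 of 6 members, where 16.5% of all genes rose and 27.7% changed), and Fabp3, Apoe and Apoa1 rose after Tdgf1 siRNA (3 of 6, where 15.0% rose and 23.6% changed). No member fell in either step. The 5 members of the earlier step had all 4 early blastocyst libraries above all 4 morula libraries, as did 19.7% of all genes tested. All 4 late blastocyst libraries lay above all 4 early ones for Fabp3, Apoe, Apoa1 and Plin2 (25.7% of all genes), and above all 4 morula libraries for the 6 members past the filter (35.3%). For Plin2 the gap was small, with the lowest late blastocyst library at 285.2 CPM and the highest early one at 284.5 CPM. Without the early blastocyst libraries numbered 2, each of these member calls was the same, in both steps and both arms.

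**Figure D2:**
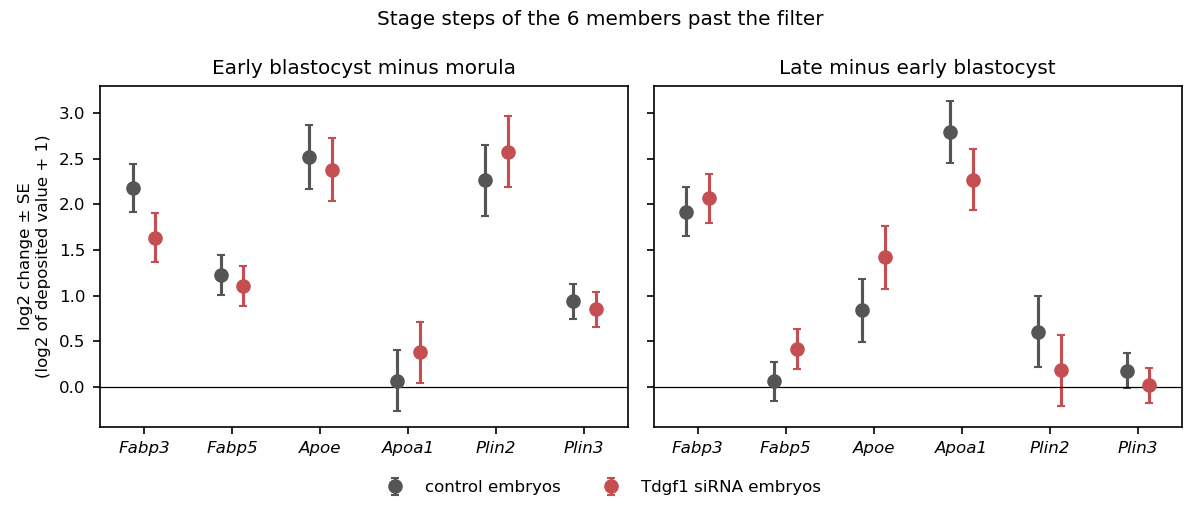
Log2 change ± SE (limma) of the 6 members past the filter for the step from morula to early blastocyst (left) and from early to late blastocyst (right), in control (grey) and Tdgf1 siRNA (red) embryos, 2 libraries per group. Apoa1 lies near 0 on the left (0.07 in controls) and highest on the right (2.79), while Plin2 shows the opposite order (2.26 and 0.60).

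Fabp3 encodes the heart type of fatty acid binding protein, known from muscle, where it feeds fatty acids to mitochondrial oxidation. It lies on chromosome 4 (GRCm38, 130308595-130315463, plus strand). Its morula level was 278 and 387 CPM in controls and 458 and 297 CPM after Tdgf1 siRNA. At early blastocyst it was 1812 and 1241 CPM in controls and 1186 and 1120 CPM after siRNA. At late blastocyst it was 5686 and 5695 CPM in controls and 3733 and 6257 CPM after siRNA. Each stage lay above the one before it with no overlap among all 4 libraries.

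The mean of the control libraries was 4.59-fold higher at early blastocyst than at morula and a further 3.73-fold higher at late blastocyst. The whole difference from morula was 17.1-fold in controls and 13.2-fold after Tdgf1 siRNA. On the log2 scale the first step in controls was 2.18 (SE 0.27, limma adjusted p = 0.000723) and the second 1.92 (SE 0.27, adjusted p = 0.000257). Fabp3 took 0.0278% to 0.0458% of a morula library's reads and 0.373% to 0.626% of a late blastocyst library's.

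Per length of merged exons, Fabp3 stood at rank 99 to 190 among 39368 genes with a length in the morula libraries. It stood at rank 12 to 23 in the early blastocyst libraries and at rank 7 or 8 in the late blastocyst libraries. The processed pseudogene Fabp3-ps1 is 99.3% identical over 402 bases and was listed at 0 to 7.02 CPM. Reads of such near-identical copies could have been split in counting, so levels are uncertain to that extent.

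Fabp5, the epidermal type of fatty acid binding protein and a relative of Fabp3, lies on chromosome 3 (10012548-10016607, plus strand). In morulae it was at 72.7 and 90.7 CPM in controls and at 79.4 and 97.7 CPM after siRNA. In early blastocysts it was at 198 and 192 CPM in controls and at 157 and 239 CPM after siRNA. In late blastocysts it was at 201 and 205 CPM in controls and at 317 and 213 CPM after siRNA. All 8 blastocyst libraries lay above all 4 morula libraries.

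The control mean rose 2.39-fold in the first step (log2 1.23, SE 0.22, limma adjusted p = 0.00333). In the second step the controls did not pass the test (log2 0.06, SE 0.22, adjusted p = 0.867), nor did the siRNA embryos (log2 0.42, SE 0.22, adjusted p = 0.185). The late blastocyst library of 317 CPM, Tdgf1 siRNA replicate 1, was also the one with the lowest Fabp3 of its stage, and it lay apart on the first principal component (46.9, against 56.5 to 60.5 in the other 3). In the first step after Tdgf1 siRNA the Fabp5 call was lost without morula Tdgf1 siRNA replicate 1 (log2 0.96, adjusted p = 0.0597). The processed pseudogene Gm6166, 98.3% identical over 409 bases, was listed at 3.73 to 23.0 CPM, so the level of Fabp5 is uncertain by at least those reads.

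Cd36, a membrane receptor that takes up long-chain fatty acids and oxidised lipoproteins, had 0 to 5 reads in each library. It was listed at 0 in 4 of 12 libraries and reached 0.458 CPM at most. A count of 0 allows up to 3 reads, or 0.218 to 0.285 CPM at these depths, so no difference in Cd36 was detectable at this depth. Such limits cover counting error only, because several reads can stem from 1 amplified molecule.

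Plin2, the perilipin found on droplets of most cell types, lies on chromosome 4 (86648386-86670060, minus strand). In morulae it was at 27.8 and 69.0 CPM in controls and at 25.4 and 71.7 CPM after siRNA. In early blastocysts it was at 265 and 192 CPM in controls and at 285 and 267 CPM after siRNA. In late blastocysts it was at 333 and 356 CPM in controls and at 285 and 343 CPM after siRNA. The morula libraries were split by their replicate number rather than by siRNA: those numbered 2 were 2.48-fold higher than those numbered 1 in controls and 2.82-fold higher after siRNA.

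The control mean of Plin2 rose 4.72-fold between morula and early blastocyst (log2 2.26, SE 0.39, limma adjusted p = 0.00286). Between early and late blastocyst the change was 1.51-fold and did not pass the test (log2 0.60, SE 0.39, adjusted p = 0.269). Over both steps it rose 7.11-fold in controls and 6.47-fold after siRNA. Without the morula libraries numbered 2, the first step was 8.22-fold in controls and 10.9-fold after siRNA, and both steps together were 12.4-fold in each arm.

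Plin3, a perilipin also called TIP47 that moves between the cytosol and nascent droplets, lies on chromosome 17 (56277476-56292873, minus strand). In morulae it was at 58.3 and 89.8 CPM in controls and at 64.7 and 83.3 CPM after siRNA. In early blastocysts it was at 144 and 140 CPM in controls and at 144 and 127 CPM after siRNA. In late blastocysts it was at 158 and 164 CPM in controls and at 137 and 136 CPM after siRNA. As for Plin2, both morula libraries numbered 2 were higher than those numbered 1 (1.54-fold and 1.29-fold).

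The control mean of Plin3 rose 1.92-fold in the first step (log2 0.94, SE 0.19, limma adjusted p = 0.00695). The second step was 1.13-fold and did not pass the test (log2 0.18, SE 0.19, adjusted p = 0.525). In controls the call of the first step was lost without morula replicate 1 (log2 0.64, adjusted p = 0.0675) and, with a change of much the same size, without early blastocyst replicate 1 (log2 0.92, adjusted p = 0.0585). Calls over all genes went from 1702 to 668 and 294 in these smaller fits. After Tdgf1 siRNA it was likewise lost without morula replicate 1 (log2 0.68, adjusted p = 0.107) or early blastocyst replicate 1 (log2 0.76, adjusted p = 0.0643), where calls over all genes went from 1658 to 534 and 830.

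Apoe, the apolipoprotein that binds LDL receptor family members and is secreted by many cell types, lies on chromosome 7 (19696109-19699188, minus strand). In morulae it was at 19.7 and 43.3 CPM in controls and at 18.8 and 24.3 CPM after siRNA. In early blastocysts it was at 175 and 197 CPM in controls and at 80.6 and 197 CPM after siRNA. In late blastocysts it was at 365 and 307 CPM in controls and at 344 and 343 CPM after siRNA. The 3 stages did not overlap, with the single low early blastocyst library, Tdgf1 siRNA replicate 1, still above every morula.

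The control mean of Apoe rose 5.91-fold in the first step (log2 2.52, SE 0.35, limma adjusted p = 0.00105), and 9.45-fold without morula control replicate 2. After siRNA it rose 6.45-fold (log2 2.38, adjusted p = 0.00125), and 3.74-fold without early blastocyst replicate 2. The second step was 1.81-fold in controls and did not pass the test (log2 0.84, SE 0.35, adjusted p = 0.0891). In Tdgf1 siRNA embryos the second step was 2.47-fold and passed it (log2 1.42, SE 0.35, adjusted p = 0.0112). Without early blastocyst Tdgf1 siRNA replicate 1 that change was 0.79 on the log2 scale (adjusted p = 0.0847), and without replicate 2 it was 4.27-fold (log2 2.05) and passed the test. The test of siRNA differences between stages, which takes all 3 stages together, did not call Apoe (unadjusted p = 0.486, limma adjusted p = 0.99989). The second step was not compared between arms on its own.

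Apoa1, the main protein of high-density lipoprotein, lies on chromosome 9 (46228580-46230466, plus strand). In morulae it was at 5.04 and 4.47 CPM in controls and at 5.52 and 3.57 CPM after siRNA. In early blastocysts it was at 4.22 and 6.17 CPM in controls and at 4.02 and 10.9 CPM after siRNA. In late blastocysts it was at 79.8 and 40.3 CPM in controls and at 44.6 and 49.4 CPM after siRNA. The 4 late blastocyst libraries (511 to 870 reads) stood apart from all 8 earlier ones (39 to 142 reads).

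Between early and late blastocyst the control mean of Apoa1 rose 11.6-fold (log2 2.79, SE 0.34, limma adjusted p = 0.000115). In Tdgf1 siRNA embryos it rose 6.31-fold (log2 2.27, SE 0.34, adjusted p = 0.00061), and 11.7-fold without the early blastocyst library labelled Tdgf1 siRNA replicate 2. Between morula and early blastocyst the log2 change did not pass the test in controls (0.07, SE 0.34, adjusted p = 0.920) or after siRNA (0.38, SE 0.34, adjusted p = 0.477), and without both libraries numbered 2 it was -0.10 and -0.09. The 95% interval of that change in controls ran from -0.66 to 0.79.

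Apom, an apolipoprotein of high-density lipoprotein that carries sphingosine 1-phosphate, had 15 to 67 reads per library. It was at 2.24 to 3.11 CPM in the 4 morula libraries, at 1.24 to 2.76 CPM at early blastocyst and at 2.88 to 5.91 CPM at late blastocyst. All 4 late blastocyst libraries were above all 4 early ones, as in 25.7% of the genes past the filter, which Apom did not pass. In a fit of 32486 genes with no filter the step did not pass limma's test (log2 0.59, SE 0.24, adjusted p = 0.218 in controls).

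Apob, the structural protein of very-low-density lipoprotein and chylomicrons, had 3 to 25 reads per library. It was at 1.33 to 2.33 CPM in morulae, at 0.248 to 0.654 CPM in early blastocysts and at 0.265 to 1.38 CPM in late blastocysts. The mean was lower at early blastocyst than at morula in both arms, on these few reads. Apom means were lower in this step as well, and among the members past the filter Apoa1 did not rise in it. The unfiltered limma fit did not call that step (log2 -0.42, SE 0.14, adjusted p = 0.207 in controls, and log2 -0.44, SE 0.14, adjusted p = 0.184 after siRNA).

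Levels of different genes are compared here as reads per kb of merged exons per 1000000 reads. At late blastocyst the control means were 6914 ± 7.19 (SD, n = 2) for Fabp3, 157 ± 19.4 for Apoe, 98.02 ± 4.59 for Plin2, 56.9 ± 0.688 for Fabp5, 48.5 ± 22.6 for Apoa1, 42.5 ± 1.02 for Plin3, 4.69 ± 0.364 for Apom, 0.0659 ± 0.0463 for Apob and 0.0638 ± 0.0903 for Cd36. The 2 control libraries of Apoa1 (64.5 and 32.6) spanned those of its neighbours Fabp5 and Plin3, so its place between them is not resolved, and Apob and Cd36 overlapped as well. Fabp5 lay above Plin3 in both libraries. At morula the control means were 404 for Fabp3 and between 13.8 and 22.9 for Fabp5, Plin3, Apoe and Plin2, where Apoa1 was at 3.84. The place of Fabp5 depends on the length used: with its longest coding transcript (987 bases, against 3567 bases of merged exons) it stood at 206 at late blastocyst, above Plin2 at 182 and below Apoe at 239.

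The siRNA against Tdgf1 was followed by no change in a member that passed the test. Of 6 members 0 passed at morula, early blastocyst, late blastocyst or in the average over stages, and 0.0% of all 10751 genes did. Tdgf1 itself was among the genes tested and did not pass, although its level was lower in most pairs. The lack of calls therefore does not show that the members were unaffected. At an unadjusted p under 0.05, limma listed 194, 112, 221 and 268 genes in these 4 comparisons, none of them a member. With edgeR 0 genes passed in each of the 4, and with DESeq2 0, 0, 1 and 0. The test of siRNA differences between stages called 0 genes (97 unadjusted), and the members' unadjusted p ranged from 0.351 to 0.735.

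The averages over stages lay between -0.30 and 0.15 on the log2 scale, and their intervals all held 0. They include early blastocyst pair 2, in which Tdgf1 was at 116.5% of its control. Averages without that pair are not given here. For Apoe the average difference over stages was -0.30 on the log2 scale (95% interval -0.73 to 0.13, limma adjusted p = 0.99998). For Fabp3 it was -0.15 (-0.48 to 0.18) and for Fabp5 0.15 (-0.12 to 0.42). For Plin2 it was 0.04 (-0.45 to 0.52), for Plin3 -0.09 (-0.33 to 0.14) and for Apoa1 -0.01 (-0.43 to 0.40). The interval was widest for Plin2 and narrowest for Plin3.

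Within stages the largest estimate was Apoe at early blastocyst (-0.54, 95% interval -1.29 to 0.20), and it followed the libraries. It was -1.09 without both libraries numbered 2, and 0.08 without Tdgf1 siRNA replicate 1. Fabp3 at early blastocyst was at -0.38 (-0.95 to 0.19), and at -0.61 without both libraries numbered 2. Fabp5 at late blastocyst was at 0.35 (-0.12 to 0.82). The 2 arms overlapped in most members at each stage. The groups did not overlap for 0 of 6 members at morula (27.5% of all genes), for Plin2 (higher after siRNA) and Fabp3 (lower) at early blastocyst (19.4%), and for Fabp5 (higher) and Plin3 (lower) at late blastocyst (31.9%).

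**Figure D3:**
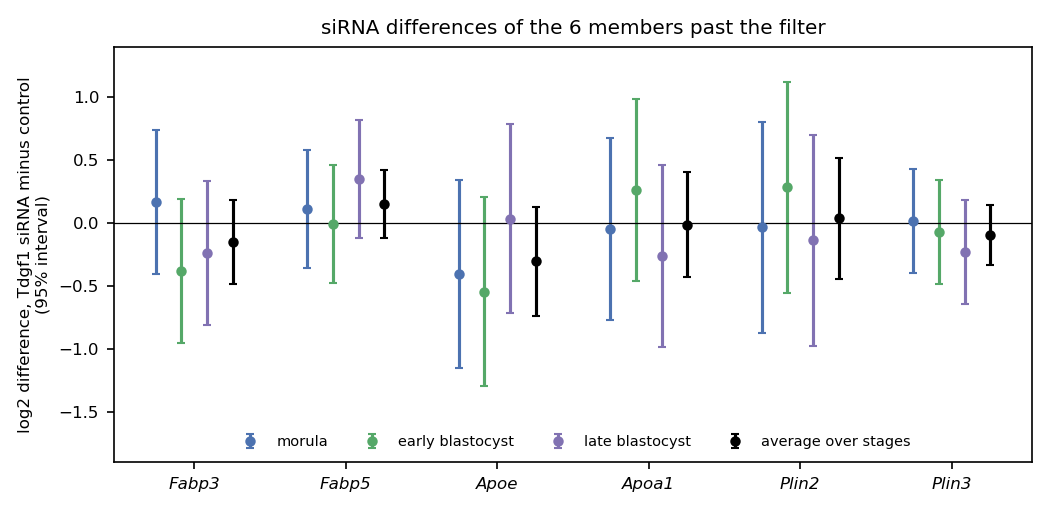
Log2 difference, Tdgf1 siRNA minus control, of the 6 members past the filter at each stage and averaged over stages, with limma's 95% intervals. Early blastocyst pair 2 is included. Every interval crosses 0; the average over stages is narrowest for Plin3 (-0.33 to 0.14) and widest for Plin2 (-0.45 to 0.52).

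Apoe and Apoa1 each sit in a cluster of apolipoprotein genes, which allowed neighbours to be set beside them. In the Apoe cluster, Apoc1 (chromosome 7, 19689481-19692660, minus strand), an inhibitor of lipoprotein uptake, was at 36.9 ± 4.93 CPM (SD, n = 2) in control morulae, 52.8 ± 7.95 CPM in early blastocysts and 148 ± 14.5 CPM in late blastocysts. It rose over both steps together (log2 1.91, SE 0.18, limma adjusted p = 3.86e-06), and in the second step (log2 1.43, adjusted p = 0.000149) but not past the threshold in the first (log2 0.48, adjusted p = 0.0886). Apoc2, the cofactor of lipoprotein lipase, named here after its values were seen, was at 36.3, 42.3 and 28.03 CPM and did not pass the test (log2 -0.27 over both steps, adjusted p = 0.479). Apoc4 had at most 2 reads in a library. In the Apoa1 cluster, Apoc3 was at 0 in all 12 libraries, and Apoa4 and Apoa5 were at 0 in the 6 control libraries and had at most 3 and 2 reads elsewhere.

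**Figure D4:**
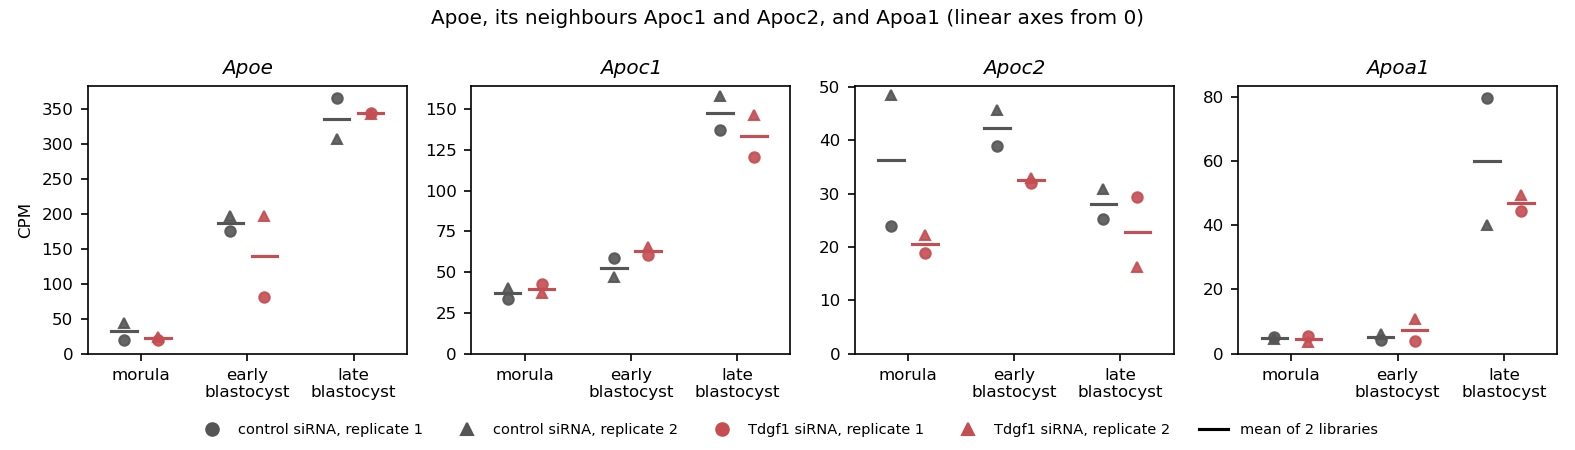
Level in CPM of Apoe, its neighbours Apoc1 and Apoc2, and Apoa1 in every library by stage, on linear axes from 0, with symbols for arm (grey control, red Tdgf1 siRNA) and replicate and bars for the mean of 2 libraries. Apoe and Apoc1 are highest at late blastocyst (control means 336 and 148 CPM), whereas Apoc2 stays between 16.2 and 48.6 CPM throughout.

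Around the members, related genes were taken from lists, also chosen with earlier results of these data known. The counts are for late blastocyst minus morula in control embryos, where 28.9% of all genes tested rose and 19.3% fell. Of 13 other fatty acid and retinoid binding genes (such as Fabp1, Fabp4 and Crabp2) none passed the filter, and none exceeded 1.54 CPM in a library. Of 15 other apolipoprotein genes 4 were tested: Apoc1 and Apool, a mitochondrial protein of the cristae named for its homology, rose, and Apoo and Apoc2 did not pass. The tested genes' median log2 change was 0.51, where that of all genes was 0.13. Of 15 other perilipin and droplet genes 5 were tested, of which Bscl2 (seipin, a droplet assembly protein, log2 1.90) and Aup1 (log2 1.17) rose and Cidea, a droplet fusion protein, fell (log2 -0.84, limma adjusted p = 0.0112).

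Lipoprotein assembly, lipase and receptor genes held 14 tested genes, of which 7 rose and 0 fell (median 0.71). Lpl, the secreted lipase that frees fatty acids from lipoproteins, was at 0.850 ± 0.410 CPM in control morulae, 1.63 ± 0.0395 CPM in early and 21.3 ± 0.960 CPM in late blastocysts (log2 2.49, SE 0.25, limma adjusted p = 5.95e-06). Its control means reached the filter's 3.582 CPM only at late blastocyst. A high level there was thus a condition of its being tested, which limits its call and the count of 7. Lrp2 (megalin), an endocytic receptor for apolipoproteins at epithelial surfaces, was at 301, 596 and 884 CPM (log2 1.56, SE 0.21, adjusted p = 5.12e-05). Of 10 tested genes of triglyceride and sterol ester synthesis and breakdown, 3 rose, which is near the share over all genes, and 1 fell. Soat1, which makes cholesteryl esters, was at 7.29, 25.6 and 113 CPM (log2 3.404, adjusted p = 9.13e-06), Mgll, a lipase, at 15.6, 15.9 and 77.9 CPM (log2 2.08, adjusted p = 0.000191), and Dgat2, which makes triglyceride, fell from 19.6 to 5.51 CPM (log2 -1.35, adjusted p = 0.000595).

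Fatty acid uptake, activation and oxidation genes held 26 tested genes, of which 16 rose and 2 fell (median 0.76). Acsl5, which activates fatty acids, was at 0.892, 2.11 and 28.5 CPM (log2 2.82, limma adjusted p = 1.88e-06), and Acaa2, the last enzyme of a round of mitochondrial beta-oxidation, at 43.9, 140 and 254 CPM (log2 2.47, adjusted p = 2.84e-06). Like Lpl, Acsl5 reached the filter's 3.582 CPM in control means only at late blastocyst, with the same limit on its call and on the count. Acsl4, the ligase that prefers arachidonic acid, went the other way, at 117, 35.8 and 11.4 CPM (log2 -3.07, adjusted p = 7.93e-05), and so did Slc25a20, the mitochondrial carnitine carrier (log2 -1.39, adjusted p = 0.00048). Of 6 tested regulators Srebf2, a regulator of sterol genes, rose (log2 2.05, adjusted p = 0.000976), and the nuclear receptors Rxra (log2 -1.77, adjusted p = 3.12e-05) and Nr1h2 (log2 -0.94, adjusted p = 0.00281) fell. Under TMM scaling the counts of oxidation genes were 13 risen and 2 fallen, and the receptor list kept its count of 7; with quantile normalization they were 14 and 2, and 5. Under both scalings 2 droplet genes, 2 triglyceride and sterol ester genes and 3 regulators fell, in place of 1, 1 and 2, and 4 triglyceride and sterol ester genes rose with quantile normalization. The calls over all 10751 genes moved as well. Under TMM scaling 2689 rose and 2549 fell, and with quantile normalization 2455 rose and 2778 fell, in place of 3109 and 2073.

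**Figure D5:**
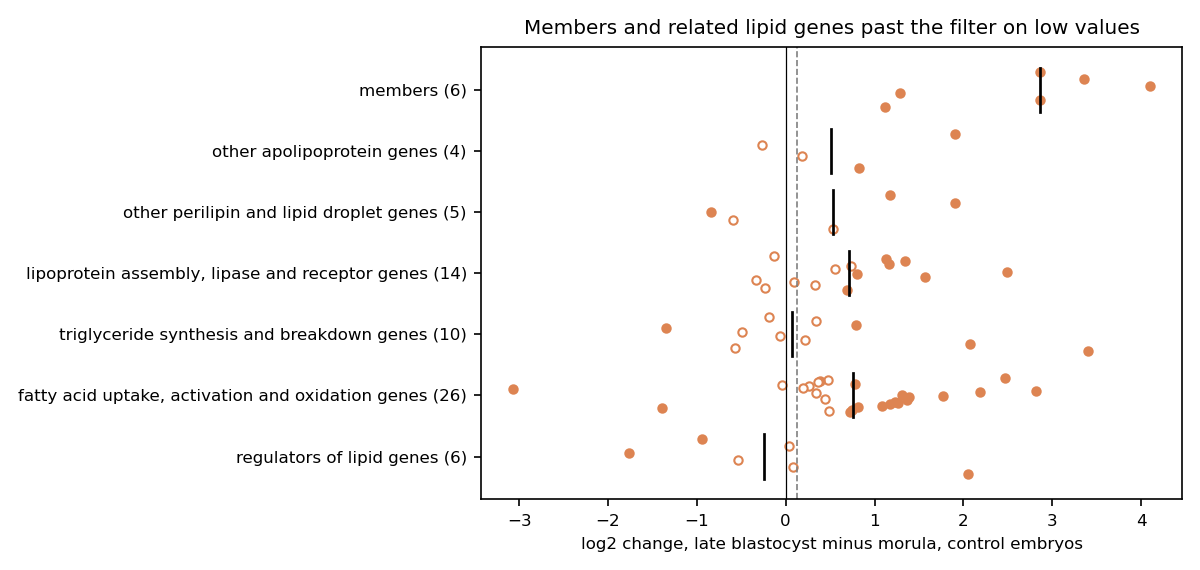
Log2 change from morula to late blastocyst in control embryos of each tested gene of the member set and of 6 lists of related lipid genes (number tested in parentheses); filled points passed the threshold, open points did not, black bars are medians and the dashed line is the median of all genes (0.13). The 6 members run from 1.11 to 4.10, and Acsl4 at -3.07 is the lowest point.

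Pattern likeness was measured as Pearson's r of log2 values over the 12 libraries, which share the 3 stages, and is a description. The 3 genes most like Fabp3 were Camk1 (r = 0.991), Atp5o (0.990) and Reep5 (0.990). Those most like Plin2 were Bmyc (0.991), A230005M16Rik (0.981) and Echs1 (0.981), an enzyme of beta-oxidation. Plin3 was most like Plin2 (0.979), then Elovl7 (0.978) and Ass1 (0.977). For Apoe they were Tmem116 (0.985), Etfb (0.983), an electron carrier of beta-oxidation, and Neu1 (0.983), for Apoa1 Msra (0.982), Npr2 (0.981) and Ocln (0.980), and for Fabp5 they included Mrpl36 (0.969) and Asna1 (0.966). Among pairs of members r ranged from 0.556 (Apoa1 with Plin3) to 0.979 (Plin2 with Plin3).

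Markers of the embryo's cell types moved over the same stages. Their counts are for late blastocyst minus morula in control embryos, where 28.9% of all genes tested rose and 19.3% fell. The summed level of 10 trophectoderm markers was 542 to 779 CPM in morulae, 1670 to 3735 CPM in early and 5449 to 7756 CPM in late blastocysts, and between morula and late blastocyst in controls 8 of 10 rose (Krt18 from 119 to 3851 CPM, Gata2 from 0.0942 to 93.1 CPM) and Tfap2c fell. Of 9 tested primitive endoderm markers 8 rose and 1 fell: Sox17 was at 0 in both control morulae and at 44.9 CPM in late blastocysts, Lama1 went from 0.282 to 64.8 CPM, and Gata6 fell from 405 to 196 CPM, so that the sum of the 10 was 417 to 504, 277 to 341 and 471 to 593 CPM. The control means of Sox17 and Lama1 reached the filter's 3.582 CPM only at late blastocyst, which limits their calls as for Lpl. Medians over the 12 libraries were also under it for Gata4 (2.43 CPM), Serpinh1 (0.846 CPM), Srgn (1.23 CPM) and the trophectoderm marker Elf5 (0.155 CPM). High values in part of the libraries were thus a condition of testing these genes, which limits the counts in both lists. Of 9 tested epiblast markers 3 rose, near the share over all genes, among them Sox2 and Tdgf1 (26.4 to 90.9 CPM). Another 4 fell, among them Nanog (455 to 82.9 CPM) and Klf2 (109 to 22.0 CPM). The sum of the 10 epiblast markers was 930 to 1211 CPM in morulae, 1083 to 1213 CPM in early and 639 to 664 CPM in late blastocysts. Of 10 cumulus and granulosa cell markers only Amhr2 passed the filter, and it fell from 20.3 to 3.99 CPM; the sum was 4.63 to 23.4 CPM. Of 9 measured blood, liver and reproductive tract markers, 2 passed the filter, with a sum of 22.0 to 46.2 CPM. Between morula and late blastocyst in controls neither changed past the threshold, but Cd68, a macrophage and lysosome marker named here after its values were seen, rose between morula and early blastocyst from 4.87 to 17.6 CPM in controls (log2 1.37, limma adjusted p = 0.0163) and also after siRNA (log2 1.45, adjusted p = 0.0133). In that step 9.52% of all genes rose in controls and 8.8% after siRNA. Pecam1, the other marker past the filter, was not called in it (limma log2 0.02, adjusted p = 0.973 in controls, and log2 0.36, adjusted p = 0.310 after siRNA). From early to late blastocyst Cd68 was at log2 -0.84 in controls and did not pass limma's test (adjusted p = 0.0788). The part of these markers' cell types in the members' rise was not tested. In whole embryos fewer cells of a type and less RNA per cell cannot be told apart.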

How the data were processed

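RNA-seq libraries of 12 CD1 mouse embryo samples, 2 for each stage and siRNA, were analysed from 1 deposited table. Per the labels' protocols, cDNA came from the SMARTer Ultra Low Input kit and sequencing libraries from NEBNext Ultra DNA; no source used here states strand, so sense and antisense reads cannot be told apart. Per the submitters' processing notes, HISAT2 2.1.0, Cufflinks, HTSeq, edgeR and the mouse build mm10 were used, with no role stated. Per the file headers the deposited unit is RPKM, but the values are CPM divided by 3.582 for every gene: 100.0% were whole multiples of 1 read (tolerance 0.01 reads). Levels are CPM recovered from the deposited values, and whole reads came from the same steps. Of all names 90.6% matched 1 GENCODE M21 gene (GRCm38), which gave coordinates and lengths. All columns of per-library values were matched to a sample (0 were left out).

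The test was limma 3.58.1 (eBayes with trend, R 4.3.3) on log2(deposited value + 1), a pseudocount of 3.582 CPM that understates changes of low genes, over 10751 genes whose mean over the libraries reached 1 in the deposited unit. The fit had 6 group means, 6 residual and 7.55 prior degrees of freedom. The design had assumed RPKM; limma suits CPM too and was kept. No label says that the 2 libraries of a group came from separate collections, so p-values measure the spread between these libraries, which may be technical. Libraries of 1 group differed by more than read sampling (chi-square per gene 20.7 to 49.8). After removal of group means, control and siRNA libraries of the same number correlated at 0.458, 0.593 and 0.101 in morulae, early and late blastocysts. Pairing by number therefore rests on the data, not on the labels, and only in morulae and early blastocysts. Neighbouring stages of the controls correlated at 0.006 and 0.138, so numbers are not taken to pair stages. The late blastocyst value of 0.101 was below the higher of these, so the data give little ground for pairing at that stage. A block on the number over all stages is given only as an alternative. Alternatives were another pseudocount, filters, quantile normalization, TMM, edgeR 4.0.16 and DESeq2 1.42.0 on whole reads, blocks, and leaving out libraries. Tables and plots used Python 3.11.15, numpy 2.4.6, pandas 2.3.3 and matplotlib 3.10.9.

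The members, lists and markers were chosen with earlier results of these data known. Named were all members, in each list up to 2 genes with the largest rise and 2 with the largest fall among those past the threshold from morula to late blastocyst in controls, any list gene called in a siRNA comparison (none was), and the 3 genes most like each member. Of the genes this rule names, 1 is not reported here.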

Additional observations from a re-analysis of the deposited data

How the results depend on the processing

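In controls the count of members called between morula and early blastocyst was 5, and 3 with no filter on low values (Plin2 adjusted p = 0.0562, Plin3 0.0549). After Tdgf1 siRNA it was 5, and 3 with no filter (Fabp5 0.0550, Plin3 0.0661). Leaving out 1 library lost calls in both arms. After Tdgf1 siRNA the lost calls were Fabp5 (log2 0.96) and Plin3 (0.68) without morula replicate 1, and Plin3 (0.76) without early blastocyst replicate 1. In controls Plin3 was lost without morula replicate 1 (0.64) or early blastocyst replicate 1 (0.92). Fewer of all genes were called in these smaller fits as well. With no filter 32486 genes were tested, and the calls over all genes in this step were 462 against 1702 in controls and 688 against 1658 after siRNA.

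Between early and late blastocyst, Apoe was called in controls with the replicate number as a block (log2 0.84, adjusted p = 0.0480), and the average over both arms, which is no value of the controls alone, was called as well (1.13, 0.00584). After siRNA its call was lost at an unmoved log2 change of 1.42 with no filter (0.0891) and without late blastocyst Tdgf1 siRNA replicate 1 (0.0555) or 2 (0.0678), and with edgeR at 1.18 (0.0515). The cause was not tested. Of 492 alternatives to the 36 stage values, 14 lost and 2 gained a call and 0 called values reversed; 4 values that had not passed (Apoa1 in the first step in both arms, Fabp5 in controls and Plin3 after siRNA in the second) changed sign in at least 1 alternative; the 6 members' calls from morula to late blastocyst stood in both arms in all alternatives run.

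Of 348 alternatives to the 24 siRNA values 0 passed the threshold, and 16 of the values changed sign in at least 1. With stage-and-number pairs as a replicate block, 0 members were called in each siRNA comparison (Apoe average -0.30, adjusted p = 0.497), and 5, 5, 3 and 0 of all genes at morula, early blastocyst, late blastocyst and in the average; the pairing changed no other member call. With no filter 11 genes passed at late blastocyst, none a member.

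TMM and quantile scaling moved the median log2 change of all genes between morula and late blastocyst in controls from 0.13 to 0.01 and -0.06, and the share of higher calls from 60.0% to 51.3% and 46.9% (after siRNA from 62.0% to 52.5% and 48.2%). Between early and late blastocyst that share went from 59.6% to 52.6% and 48.2% in controls and from 63.6% to 53.3% and 49.5% after siRNA. Depth limits Apob, Apom and Cd36, with at most 67 reads in a library.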
